A study of Homo sapiens with 12 samples.

Results

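The mitochondrial chromosome's own transcripts, and the nuclear genes that copy, transcribe and process that chromosome, were followed in 12 messenger RNA libraries of cultured human neuroblastoma cells. The 34 genes were taken by symbol from the deposited count table of 61552 genes. They comprise 13 mRNAs and 2 rRNAs encoded in mitochondria and 19 nuclear genes, of which 6 serve transcription, 4 replication and 9 RNA processing, stability and decay. All 34 matched an Ensembl gene, and all 34 were among the 20304 genes that passed the filter on low counts.

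Human mitochondrial DNA is a small circle read from promoters on both strands into long RNAs, which are cut at the tRNAs that lie between most of the genes. The heavy-strand transcripts give both rRNAs and nearly all mRNAs, while the light-strand transcript gives MT-ND6 and several tRNAs. The mRNAs encode core subunits of respiratory complexes I, III and IV and of ATP synthase, and every protein that copies, reads or trims this genome is made from nuclear genes and imported. Neuroblastoma arises from the sympathetic nerve lineage, and ferroptosis, the iron-dependent death by lipid peroxidation that the lipid hydroperoxidase GPX4 prevents, involves membrane lipids that mitochondrial respiration can help to oxidise.

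The study cultured 2 neuroblastoma cell lines, SK-N-AS and SK-N-BE(2), both labelled wild type, without a drug or overnight with ML210, a covalent inhibitor of GPX4 whose dose is not given in the sources used here. The labels make 4 groups of 3 libraries, untreated and ML210-treated cells of each line. The labelled batches, 1 to 3, carry the same numbers as the replicates. Each label stands for 1 line, so a difference between labels is a difference between 2 lines, and since no source describes separate cultures within a group, p-values reflect only the spread among these libraries, which may be technical.

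The 12 libraries held 54047293 to 83481963 counted reads. The design text names SK-N-BE(2) as the line with amplified MYCN, but MYCN stood at 3458 to 3933 CPM (reads scaled to a common library size) in the 6 libraries labelled SK-N-AS and at 0.0608 to 0.24 CPM in the 6 labelled SK-N-BE(2). The expression of MYCN therefore goes against the line labels, and every direction below is given by label. TH, which encodes the first enzyme of catecholamine synthesis, followed MYCN, with 242 to 308.2 CPM under the label SK-N-AS and 0.0608 to 0.607 CPM under the label SK-N-BE(2). The mesenchymal transcription factor gene PRRX1 ran the other way, with 170.6 to 266.9 CPM under the label SK-N-BE(2). Small amounts of PRRX1, at 1.17 to 1.54 CPM, were counted in the 4 libraries labelled SK-N-AS of batches 2 and 3, against 0 and 0.026 CPM in those of batch 1. Summed over the 8 mesenchymal markers, the libraries labelled SK-N-AS held 246 to 324 CPM and those labelled SK-N-BE(2) held 2400 to 3110 CPM, and the T cell marker CD3E was at or near 0 everywhere. PTPRC, a general blood cell marker, stood at 162.1 to 328.9 CPM under the label SK-N-BE(2), at 1.115 to 2.12 CPM in the SK-N-AS libraries of batches 2 and 3 and at 0 in those of batch 1. The part of these markers in the results below was not tested, other than by leaving those 4 libraries out. GPX4, the target of the drug, was counted at 244.7 to 282 CPM under the label SK-N-AS and at 215.4 to 257.4 CPM under the label SK-N-BE(2).

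Coordinates are those of GRCh38 with the GENCODE 29 gene models. Some mitochondrial genes overlap, so a read can belong to both. MT-ATP8 (chrM:8366-8572) and MT-ATP6 (chrM:8527-9207), which encode ATP synthase subunits, share 46 bases of 1 mRNA, and MT-ND4L (chrM:10470-10766) and MT-ND4 (chrM:10760-12137), which encode complex I subunits, share 7. The sequences are printed because reads in the capitals cannot be assigned to 1 gene. Both stretches are on the plus strand, at chrM:8512-8587 and chrM:10745-10781, and capitals mark the shared bases, which begin with the start codon of the downstream gene.
MT-ATP8 into MT-ATP6: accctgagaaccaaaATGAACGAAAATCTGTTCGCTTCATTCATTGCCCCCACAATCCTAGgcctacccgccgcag
MT-ND4L into MT-ND4: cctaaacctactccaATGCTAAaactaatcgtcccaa

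Nuclear copies of mitochondrial genes can also take or give reads. MT-ND2 (chrM:4470-5511), which encodes a complex I subunit, and its nuclear copy MTND2P28 (chr1:629640-630683) differ at 17 of 1042 aligned bases, and the longest stretch without a difference is 266 bases. The 60 bases at chrM:4899-4958 and chr1:630069-630128 are printed as one of the places where a read can tell them apart, with the 4 differing bases in capitals.
MT-ND2: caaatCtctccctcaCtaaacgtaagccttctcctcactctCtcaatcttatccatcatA
MTND2P28: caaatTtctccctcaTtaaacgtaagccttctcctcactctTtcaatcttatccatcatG

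Of all 100-base windows of MT-ND2, 26.1% are found letter for letter in another annotated transcript, and for MT-CO1 the share is 27.9%. The share is 11.9% for MT-ATP6, 11% for MT-ND1, 4.4% for MT-CO3 and 2.4% for MT-CO2, and no 100-base window of the other 9 mitochondrial transcripts has such a copy. Reads counted for MTND2P28 numbered 4.22 to 5.51 per 100 reads of MT-ND2 over all 12 libraries. Reads counted for MTATP6P1, the copy of MT-ATP6, numbered 19.8 to 21.9 per 100 reads of MT-ATP6. Both ratios stayed within narrow ranges in every group, and adding the copies' reads to the parent gene left the control difference described below within 0.01 log2 units for each of the 9 genes for which it was computed. Copy reads that are few or in a steady ratio can hardly move that difference. Any reads left out for matching several places are not in the sum.

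In untreated cells, the mitochondrial transcripts were far lower under the label SK-N-BE(2) than under the label SK-N-AS, with MT-ND2 and MT-ND3 as the exceptions. The 15 mitochondrial transcripts took 4.86%, 5.52% and 6.07% of all counted reads in the 3 SK-N-AS controls and 2.32%, 2.11% and 2.45% in the 3 SK-N-BE(2) controls. Every SK-N-AS control lay above every SK-N-BE(2) control, and the means differed by -3.18 percentage points (exact permutation test, two-sided, p = 0.1, the smallest that 3 against 3 libraries allow, adjusted p = 0.171 over 12 such tests). In a bulk library, fewer mitochondria-rich cells and less mitochondrial RNA per cell cannot be told apart.

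Gene by gene, a difference is called where the adjusted p of edgeR's quasi-likelihood test, over all 20304 genes, is under 0.05. Among the 15 mitochondrial transcripts, 13 were called lower under the label SK-N-BE(2), MT-ND3 was called higher and MT-ND2 was not called. Their median log2 difference was -1.55, beside -0.01 over all genes tested. Over all 34 genes, 24 were called lower, 7 higher and 3 not, in a comparison that called 69.2% of all genes, 35.2% of them lower and 33.9% higher. Shares are of all genes tested. The CPM ranges of the controls did not overlap for 25 genes that were lower (13 mitochondrial and 12 nuclear) and for 6 that were higher (1 and 5), against 37.7% and 36.3% of all genes.

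**Figure D1:**
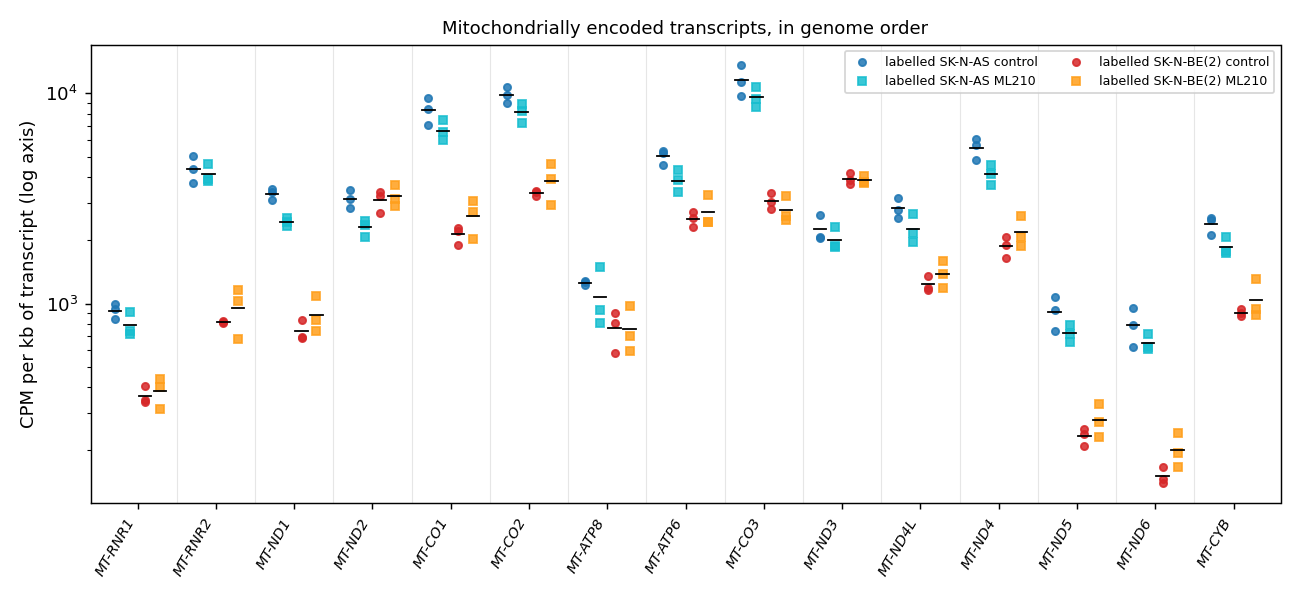
Level of each mitochondrially encoded transcript in the 12 libraries, in CPM per kb of transcript on a log axis, with genes in their order on the genome; points are libraries and black bars are group means. The controls labelled SK-N-AS lie above those labelled SK-N-BE(2) except at MT-ND2, where they overlap, and MT-ND3, where they lie below.

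The rRNA of the large mitochondrial ribosomal subunit showed the widest gap. MT-RNR2 was counted at 5813, 6842 and 7809 CPM in the SK-N-AS controls and at 1280, 1266 and 1291 CPM in the SK-N-BE(2) controls. The SK-N-BE(2) controls were nearly alike and all far below, 5.33-fold lower (log2 difference -2.42 ± 0.181 SE, adjusted p = 3.91e-07). MT-RNR1, the rRNA of the small subunit, stood at 809.8, 894.2 and 945.1 CPM against 323, 332.5 and 385.3 CPM. It was also lower in every SK-N-BE(2) control, by 2.55-fold (adjusted p = 1.07e-06). Together the 2 rRNAs made up 12.6%, 12.7% and 12.9% of the mitochondrial reads in the SK-N-AS controls and 7.34%, 8.17% and 7.46% in the SK-N-BE(2) controls. Since the libraries were made with an mRNA kit, which captures poly(A) tails, rRNA reads depend on how many rRNAs carry one. Its part in the difference was not tested.

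The complex I subunit genes ran from -2.37 for MT-ND6 to 0.80 for MT-ND3. MT-ND1 (chrM:3307-4262), a core subunit of the membrane arm, was counted at 2963, 3245 and 3352 CPM in the SK-N-AS controls and at 797.8, 656.9 and 664.3 CPM in the SK-N-BE(2) controls. The groups were far apart, with a 4.51-fold lower level in the latter (log2 difference -2.17 ± 0.127 SE, adjusted p = 9.72e-09). MT-ND5, at 1336, 1680 and 1945 CPM against 431.7, 379.4 and 458.1 CPM, was 3.91-fold lower, and MT-ND4, at 6629, 7784 and 8331 CPM against 2623, 2265 and 2870 CPM, was 2.93-fold lower. MT-ND4L, which shares its mRNA with MT-ND4, was 2.29-fold lower.

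MT-ND3 (chrM:10059-10404), another membrane-arm subunit gene, was the 1 mitochondrial transcript above its SK-N-AS level. It was counted at 709.3, 718.8 and 913.5 CPM in the SK-N-AS controls and at 1279, 1341 and 1446 CPM in the SK-N-BE(2) controls. All SK-N-BE(2) controls were higher, by 1.74-fold (log2 difference 0.80 ± 0.104 SE, adjusted p = 1.25e-05). No 50-base window of MT-ND3 occurs in another annotated transcript. MT-ND2 was counted at 2974, 3265 and 3615 CPM and at 3528, 2797 and 3377 CPM. Its control ranges overlapped almost fully (log2 difference -0.02 ± 0.11 SE, adjusted p = 0.868), while its neighbours MT-ND1 and MT-CO1 on the same heavy-strand transcript were 4.51-fold and 3.9-fold lower.

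MT-ND6 (chrM:14149-14673, minus strand) is the mRNA of the light strand, and in human cells it lacks the stable poly(A) tail of the other mRNAs. It was counted at 326.3, 412.8 and 500.2 CPM in the SK-N-AS controls and at 73.9, 77.1 and 87.9 CPM in the SK-N-BE(2) controls. The latter were all lower, by 5.18-fold (log2 difference -2.37 ± 0.174 SE, adjusted p = 4e-07). Per 1000 reads of the 12 heavy-strand mRNAs, MT-ND6 gave 7.13, 7.83 and 8.56 reads in the SK-N-AS controls and 3.67, 4.31 and 4.25 in the SK-N-BE(2) controls. The ratio was lower in each of the latter, so the counted reads of the light-strand mRNA differed by more than those of the summed heavy-strand mRNAs (exact permutation test, two-sided, p = 0.1, the smallest possible here, adjusted p = 0.171). Capture of poly(A) tails and the strand setting of the counting, which is unknown here, can bear on this ratio. Their part was not tested.

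The complex IV genes, which encode the catalytic core of cytochrome c oxidase, were lower without overlap. MT-CO1 was counted at 10850, 13020 and 14580 CPM in the SK-N-AS controls and at 3523, 2941 and 3396 CPM in the SK-N-BE(2) controls, MT-CO2 at 6146, 6689 and 7331 CPM against 2329, 2212 and 2340 CPM. MT-CO3 stood at 7635, 8834 and 10640 CPM against 2394, 2212 and 2634 CPM. The differences were 3.9-fold, 2.93-fold and 3.75-fold in that order. MT-CYB, the complex III cytochrome, was 2.65-fold lower, from 2422, 2852 and 2922 CPM to 1034, 990.8 and 1074 CPM. The ATP synthase genes differed less. MT-ATP6, at 3095, 3535 and 3620 CPM against 1743, 1573 and 1858 CPM, was 1.98-fold lower, and MT-ATP8, at 253.2, 264.9 and 262.1 CPM against 120.2, 166.7 and 186.1 CPM, was 1.65-fold lower (adjusted p = 0.0322). The call of MT-ATP8 was lost without any 1 of the 3 SK-N-AS controls, without SK-N-BE(2) control 1 or 2, and without the SK-N-BE(2) ML210 library of batch 1 (adjusted p 0.0531 to 0.12).

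As shares of the mitochondrial mRNA reads, the make-up of the pool differed between the labels. MT-ND2 went from 6.24% ± 0.181 (SD, n = 3) of these reads in the SK-N-AS controls to 16.4% ± 0.95 in the SK-N-BE(2) controls, and MT-ND3 from 1.48% ± 0.11 to 6.91% ± 0.572. MT-CO1 took 24.3% ± 0.634 against 16.7% ± 0.617, and MT-CO3 took 17.1% ± 0.843 against 12.3% ± 0.417. MT-CYB held about the same share under both labels, 5.19% ± 0.212 and 5.26% ± 0.219. Shares of a pool move together, so a larger share of 1 transcript lowers those of the others.

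Per kb of transcript, the order of levels also differed. In the SK-N-AS controls MT-CO3 was first at 11530 ± 1930 CPM per kb (SD, n = 3), followed by MT-CO2 at 9827 ± 867 and MT-CO1 at 8314 ± 1210, and neighbours among these 3 overlapped in range. MT-ND4, MT-ATP6 and MT-RNR2 came next, with overlap between neighbours among these 3, and MT-RNR1, MT-ND5 and MT-ND6 stood last at 925.6 ± 71.7, 912.8 ± 169 and 786.9 ± 166 CPM per kb, again with overlap. In the SK-N-BE(2) controls MT-ND3 was first at 3917 ± 244 CPM per kb, above MT-CO2 at 3353 ± 104 with no overlap. MT-ND2 at 3103 ± 370 and MT-CO3 at 3078 ± 270 followed, and MT-ND6 was again last at 151.7 ± 14. MT-ND3 had been 11th of 15 under the label SK-N-AS, at 2256 ± 333 CPM per kb.

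**Figure D2:**
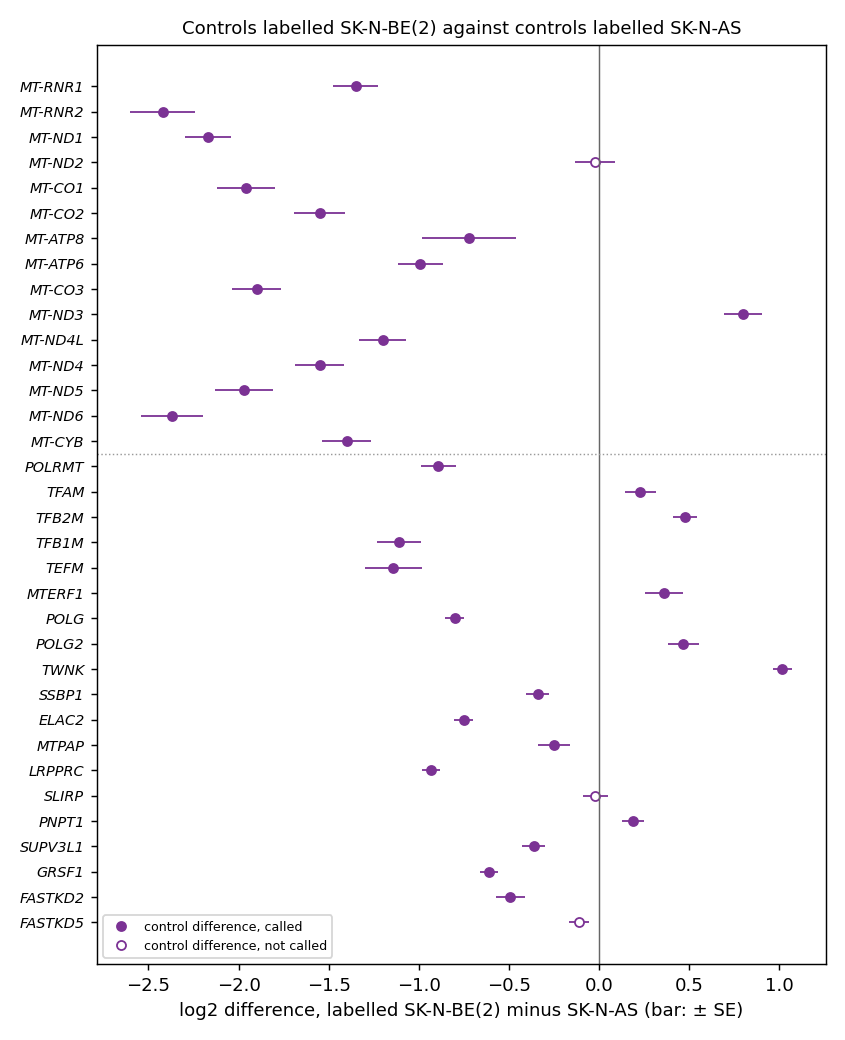
Log2 difference of each of the 34 genes between the controls, SK-N-BE(2) label minus SK-N-AS label; points are edgeR estimates, bars ± SE, filled points are called at an adjusted p under 0.05, and the dotted line parts mitochondrial from nuclear genes. The mitochondrial genes spread from -2.42 to 0.80 and the nuclear genes from -1.14 to 1.02.

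The nuclear genes differed between the control labels in both directions. Of the 19, 11 were called lower under the label SK-N-BE(2) and 6 higher, with SLIRP and FASTKD5 not called, where 35.2% of all genes were lower and 33.9% higher. Their median log2 difference was -0.34. With library totals in place of TMM scaling, which moves the median of all genes from -0.01 to 0.24, the median of the 19 was -0.09, and SSBP1, MTPAP, SUPV3L1 and MT-ATP8 lost their calls. A change of scaling moves all genes by nearly the same amount. The distance of the nuclear median from that of all genes could therefore hardly change, and it does not test the scaling.

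Of the 6 transcription genes, 3 were called lower and 3 higher. POLRMT (chr19:617224-633604), the mitochondrial RNA polymerase, was counted at 160.8, 138.2 and 130.9 CPM in the SK-N-AS controls and at 81.1, 77.1 and 74.2 CPM in the SK-N-BE(2) controls. It was 1.85-fold lower in the latter, without overlap (log2 difference -0.89 ± 0.0995 SE, adjusted p = 2.8e-06). TFB2M (chr1:246540560-246566324), the factor that opens the promoter with the polymerase, went the other way, at 49.1, 44 and 51.5 CPM against 68, 67.5 and 66 CPM. Every SK-N-BE(2) control was above every SK-N-AS control, and the difference was 1.39-fold (adjusted p = 2.27e-05). TFAM, which packages mitochondrial DNA and bends the promoter, stood at 66, 61 and 68.5 CPM against 78.4, 67.8 and 83.7 CPM. These ranges overlapped, and the 1.18-fold higher level (adjusted p = 0.0255) lost its call without SK-N-AS control 2 or without SK-N-BE(2) control 3 (adjusted p 0.109 and 0.0681).

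TEFM, the elongation factor that keeps the polymerase on its template, was counted at 6.39, 6.95 and 6.87 CPM against 2.87, 3.38 and 2.89 CPM. The groups were apart by 2.21-fold, lower under the label SK-N-BE(2). TFB1M, an rRNA dimethyltransferase related to TFB2M, was 2.15-fold lower, at 14.4, 16.4 and 18.9 CPM against 7.56, 7.49 and 8 CPM. MTERF1, which binds DNA at the end of the rRNA genes, was 1.28-fold higher (adjusted p = 0.00814), at 12.5, 11.2 and 13.6 CPM against 16.3, 15.6 and 15.9 CPM. The spans of TEFM and TFB1M overlap genes on the other strand. So do those of TWNK, POLG, POLG2, SSBP1, MTPAP, LRPPRC, SLIRP, FASTKD2 and FASTKD5. As the strand setting of the counting is unknown here, reads of such neighbours could be among theirs. Whether exons overlap was not examined.

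POLRMT and TFB2M work at the same mitochondrial promoters but differed in opposite directions, so their own nuclear promoters are shown, from RefSeq's GRCh38.p14 table. Each holds 250 bases before and 50 after the gene's start, read 5′ to 3′ on the gene's strand, at chr19:633488-633787 (minus) for POLRMT and chr1:246566212-246566511 (minus) for TFB2M. Capitals mark the core of the NRF1 motif, GCATGCGC, searched on both strands. NRF1 is a transcription factor known for nuclear genes of mitochondrial function.
POLRMT: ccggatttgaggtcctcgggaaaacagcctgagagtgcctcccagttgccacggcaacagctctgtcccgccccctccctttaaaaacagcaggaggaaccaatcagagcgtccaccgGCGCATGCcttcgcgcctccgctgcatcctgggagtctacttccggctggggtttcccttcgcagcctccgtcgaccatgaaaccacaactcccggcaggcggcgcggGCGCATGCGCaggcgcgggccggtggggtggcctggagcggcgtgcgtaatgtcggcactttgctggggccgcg
TFB2M: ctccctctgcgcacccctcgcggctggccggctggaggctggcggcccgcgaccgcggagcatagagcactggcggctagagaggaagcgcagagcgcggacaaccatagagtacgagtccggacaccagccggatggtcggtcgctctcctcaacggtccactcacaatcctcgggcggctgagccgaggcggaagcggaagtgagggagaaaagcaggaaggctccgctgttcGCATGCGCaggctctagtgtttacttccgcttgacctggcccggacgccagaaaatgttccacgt

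Promoters were matched for 17 of the 19 nuclear genes. The NRF1 core was in 4 of them (POLRMT, TFB1M, TFB2M and MTPAP), against 3.05% of 35116 promoters of the same length. Those 4 genes were 3 called lower and 1 called higher. The ETS motif CCGGAAGT was in 5 (POLRMT, TEFM, MTERF1, SSBP1 and ELAC2), against 4.14% of promoters, and 4 of these were called lower and 1 higher. The E-box CACGTG, which MYC proteins can bind, was in 0 of 17, against 7.26%. None of these 3 strings holds another, though the core of NRF1 can overlap its own reverse complement, as it does once in the POLRMT promoter. A match describes letters in the window and is not a measured site. In these counts a gene has a motif if any of its listed promoters holds it. The shares beside them are of single promoters, so the rates are not measured alike.

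Among the 4 replication genes, TWNK (chr10:100987367-100994401), the replicative DNA helicase, differed most. It was counted at 70.1, 67.5 and 65.9 CPM in the SK-N-AS controls and at 133.8, 140 and 139.9 CPM in the SK-N-BE(2) controls. The SK-N-BE(2) controls were all higher, 2.03-fold (log2 difference 1.02 ± 0.055 SE, adjusted p = 1.13e-09). POLG (chr15:89305198-89334861), the catalytic subunit of the mitochondrial DNA polymerase, ran opposite, at 103, 103.5 and 96.5 CPM against 57.4, 57.7 and 58.9 CPM, 1.74-fold lower (adjusted p = 1.27e-08). POLG2, its accessory subunit, was 1.39-fold higher, at 11.3, 10.3 and 11 CPM against 15.7, 14.6 and 15 CPM. The subunits of 1 enzyme thus lay on different sides of 0. SSBP1, the single-strand DNA-binding protein of the same replication fork, was 1.27-fold lower. TWNK overlaps MRPL43 and POLG overlaps FANCI on the other strand.

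Of the 9 genes for processing, stability and decay, 6 were called lower, PNPT1 was called higher and 2 were not called. LRPPRC (chr2:43886508-43996005), which with SLIRP holds mitochondrial mRNAs stable, was counted at 556.2, 535.6 and 571.5 CPM in the SK-N-AS controls and at 294.7, 283.4 and 295.6 CPM in the SK-N-BE(2) controls. It was 1.9-fold lower, without overlap (log2 difference -0.93 ± 0.049 SE, adjusted p = 9.3e-10). Its partner SLIRP did not follow, at 73.9, 74.3 and 81.9 CPM against 71, 82.8 and 73.4 CPM (log2 difference -0.02 ± 0.0689 SE, adjusted p = 0.828). The ranges of SLIRP overlapped, and with library totals as the scaling it was called higher (log2 difference 0.23, adjusted p = 0.0075).

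ELAC2, the nuclease that frees the 3′ ends of tRNAs, was 1.68-fold lower (adjusted p = 2.27e-08), at 118.4, 126.9 and 124.5 CPM against 75.4, 73.9 and 70.3 CPM. GRSF1, an RNA-binding protein of the mitochondrial RNA granules, was 1.53-fold lower, and FASTKD2, which takes part in the assembly of the large ribosomal subunit, was 1.4-fold lower. In both, the control ranges did not overlap. SUPV3L1, the helicase of the RNA degradosome, was 1.28-fold lower, whereas PNPT1, its exonuclease partner, was 1.14-fold higher (adjusted p = 0.0118). MTPAP, the mitochondrial poly(A) polymerase, was 1.19-fold lower (adjusted p = 0.0228), with 34.5, 34.8 and 36 CPM against a spread of 33.8, 25.2 and 29.4 CPM. The call of MTPAP was lost without SK-N-AS control 3, SK-N-BE(2) control 2 or 3, or the SK-N-BE(2) ML210 library of batch 2 (adjusted p 0.0633, 0.196, 0.0982 and 0.0518), and with DESeq2 (adjusted p = 0.0585). The call of PNPT1 was lost without SK-N-AS control 2 (adjusted p = 0.0565). FASTKD5, which helps to process mRNA ends without a tRNA, stood at 64, 61.6 and 62.1 CPM against 57.8, 57.1 and 58.5 CPM, did not overlap, and was not called (log2 difference -0.11 ± 0.0567 SE, adjusted p = 0.0894).

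**Figure D3:**
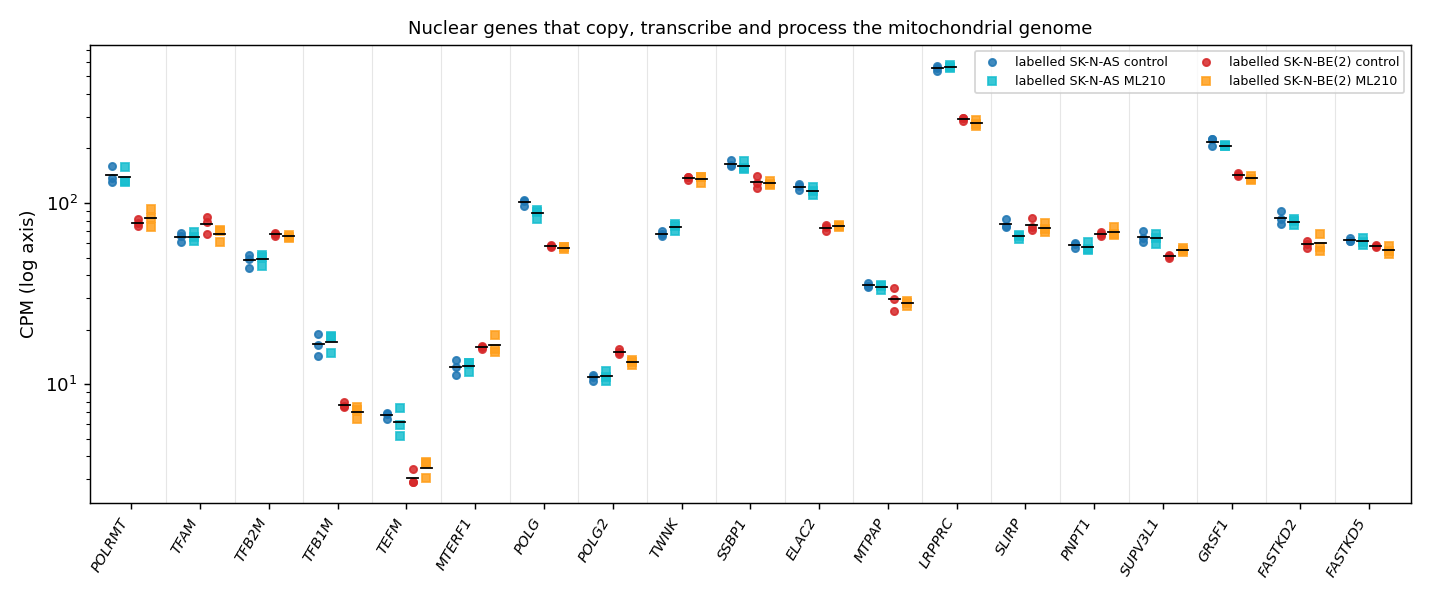
Level of each nuclear gene in the 12 libraries, in CPM on a log axis, grouped from transcription through replication to processing and decay; points are libraries and black bars are group means. POLRMT, POLG and LRPPRC lie lower and TFB2M and TWNK higher under the label SK-N-BE(2), while control and ML210 points of 1 label lie close together.

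The 4 libraries labelled SK-N-AS of batches 2 and 3, where small amounts of PRRX1 were counted, were also left out. Only the batch 1 control then remained under that label, so the number of genes called is not given. MT-ATP8, TFAM, MTERF1, MTPAP and PNPT1 lost their calls in that smaller fit. The median of the mitochondrial transcripts was then -1.36. For levels per kb, the length of a nuclear gene is that of all its annotated exons joined, which can exceed any 1 transcript. The order of these genes per kb therefore depends on the annotation. On that scale LRPPRC led the nuclear genes in the SK-N-AS controls at 56.8 ± 1.85 CPM per kb (SD, n = 3), above SSBP1 at 33.1 ± 1.35 without overlap. In the SK-N-BE(2) controls TFB2M led at 36.4 ± 0.551 CPM per kb, above TWNK at 33.4 ± 0.859, followed by LRPPRC at 29.8 ± 0.7. TEFM was last under both labels.

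ML210 left each of the 34 genes uncalled under both labels. For the label SK-N-AS, 0 of 34 were called by edgeR's quasi-likelihood test, with 10 at an unadjusted p under 0.05, and DESeq2 also called 0. That comparison called 6 of 20304 genes, 0.0296%, and 1398 had an unadjusted p under 0.05. For the label SK-N-BE(2), 0 of 34 were called, with 3 at an unadjusted p under 0.05 and 0 by DESeq2. Among all 20304 genes, 279 (1.37%) were called there, 0.818% higher and 0.557% lower, and 2732 had an unadjusted p under 0.05. The ML210 comparison under the label SK-N-AS and the control comparison above share the SK-N-AS controls, and those under the label SK-N-BE(2) share the SK-N-BE(2) controls.

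**Figure D4:**
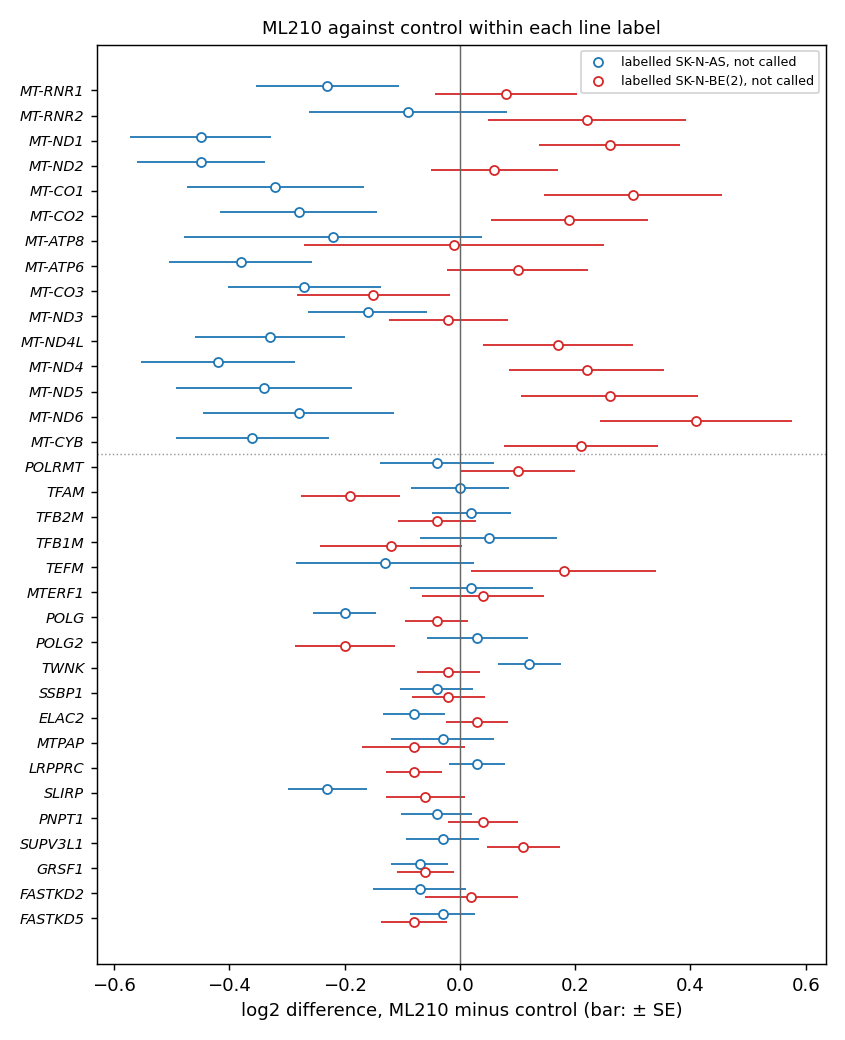
Log2 difference of each of the 34 genes, ML210 minus control, for the label SK-N-AS (blue) and the label SK-N-BE(2) (red); points are edgeR estimates, bars ± SE, and open points are not called. Under the label SK-N-AS the mitochondrial genes lie between -0.45 and -0.09, and under the label SK-N-BE(2) between -0.15 and 0.41.

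Under the label SK-N-AS, the estimates of all 15 mitochondrial transcripts lay below 0 after ML210, with a median of -0.32 beside -0.01 over all genes. The mitochondrial share of reads, 4.86%, 5.52% and 6.07% without the drug, was 4.47%, 4.21% and 5.15% with it. These ranges overlapped, and the difference of -0.873 percentage points did not pass (exact permutation test, two-sided, p = 0.2, adjusted p = 0.3). In same-batch pairs, which the shared batch label allows, 14 of 15 transcripts were lower in batch 1, 15 in batch 2 and 14 in batch 3. In all 3 pairs, 13 were lower. The pairs of batches 2 and 3 rest on the labels. Over all genes tested, their crossed libraries correlated at 0.189 and 0.125, against 0.068 and 0.121 within a batch.

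The CPM ranges of 6 mitochondrial transcripts did not overlap, MT-ND1, MT-ND2, MT-CO2, MT-ATP6, MT-ND4 and MT-CYB, all lower with ML210, and with POLG and SLIRP that made 8 of 34 genes where 8.86% of all genes were lower without overlap. MT-ND1 was counted at 2963, 3245 and 3352 CPM in the controls and at 2324, 2233 and 2432 CPM with ML210. The ML210 libraries were all lower (log2 difference -0.45 ± 0.122 SE, adjusted p = 0.462), and a fit of only these 6 libraries called it (log2 difference -0.44, adjusted p = 0.0187). MT-ND2 stood at 2974, 3265 and 3615 CPM and at 2464, 2155 and 2581 CPM (log2 difference -0.45 ± 0.111 SE, adjusted p = 0.398). MT-ND4 stood at 6629, 7784 and 8331 CPM and at 5697, 5039 and 6275 CPM, also without overlap (adjusted p = 0.567). The batch 1 pair was closest in these genes, and without the 4 libraries of batches 2 and 3 the median of the 15 transcripts was -0.20.

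The estimate of MT-RNR2 lay nearest to 0 of the 15, and that of MT-RNR1 was -0.23. MT-RNR2 was counted at 5813, 6842 and 7809 CPM in the controls and at 6120, 5974 and 7155 CPM with ML210, with a log2 difference of -0.09 ± 0.172 SE. Its ranges overlapped widely. As a share of mitochondrial reads, the 2 rRNAs made up 12.6%, 12.7% and 12.9% in the SK-N-AS controls and 14.4%, 14.9% and 14.8% with ML210. All 3 ML210 libraries were above all 3 controls, by 1.94 percentage points on average (exact permutation test, two-sided, p = 0.1, the smallest possible, adjusted p = 0.171), so the rRNA share did not pass after adjustment.

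The nuclear genes had a median log2 difference of -0.03 under this label and a range from -0.23 to 0.12. SLIRP was at 73.9, 74.3 and 81.9 CPM in the controls and at 65.6, 63.6 and 66.9 CPM with ML210, lower in each (log2 difference -0.23 ± 0.0691 SE, adjusted p = 0.497). POLG was at 103, 103.5 and 96.5 CPM and at 91.3, 89.4 and 82.1 CPM, also without overlap (log2 difference -0.20 ± 0.0541 SE, adjusted p = 0.439). TWNK, at 70.1, 67.5 and 65.9 CPM and at 76.9, 74.6 and 70.1 CPM, was the 1 gene higher without overlap, where 6.01% of all genes were. TFAM and POLRMT, the core of transcription, had log2 differences of 0.00 (SE 0.0855) and -0.04 ± 0.0985 SE.

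Under the label SK-N-BE(2), 12 of the 15 mitochondrial estimates lay above 0 after ML210, with a median of 0.19. The mitochondrial share of reads, 2.32%, 2.11% and 2.45% without the drug, was 2.51%, 2.94% and 2.17% with it. Of the ML210 libraries, 2 were above all controls and 1 was within their range (difference 0.245 percentage points, exact permutation test, two-sided, p = 0.4, adjusted p = 0.48). The 3 same-batch pairs did not go one way: 10 of 15 transcripts were higher in batch 1, 15 in batch 2 and 1 in batch 3, and none was higher or lower in all 3. The CPM ranges overlapped for all 15.

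MT-ND6 had the largest estimate, from 73.9, 77.1 and 87.9 CPM in the SK-N-BE(2) controls to 102.5, 127.5 and 87.4 CPM with ML210. The library of batch 3 lay within the range of the controls (log2 difference 0.41 ± 0.167 SE, adjusted p = 0.308). MT-RNR2 was counted at 1280, 1266 and 1291 CPM and at 1799, 1606 and 1057 CPM, so that batch 3 fell below and batches 1 and 2 above every control. Without the ML210 library of batch 3, MT-RNR2 was called (log2 difference 0.39, adjusted p = 0.0455), and the number of all genes called rose from 279 to 1242. MT-CO3, in contrast, had an estimate below 0, from 2394, 2212 and 2634 CPM to 1956, 2537 and 2044 CPM (log2 difference -0.15 ± 0.133 SE). MT-ND3, the transcript that stood highest per kb in these controls, was counted at 1279, 1341 and 1446 CPM and at 1316, 1402 and 1295 CPM (log2 difference -0.02 ± 0.103 SE).

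Relative to the heavy-strand mRNAs, MT-ND6 gave 3.67, 4.31 and 4.25 reads per 1000 in the SK-N-BE(2) controls and 4.92, 5.04 and 4.74 with ML210. All ML210 libraries were above all controls here, although the CPM of MT-ND6 overlapped (exact permutation test, two-sided, p = 0.1, adjusted p = 0.171). Under the label SK-N-AS the untreated ratios of 7.13, 7.83 and 8.56 stood against 8.06, 8.47 and 8.19 with ML210, which lay within the range of the controls. Over both labels the ratio was higher with ML210 by 0.614 reads per 1000 (exact permutation test within labels, two-sided, p = 0.035, adjusted p = 0.171), which did not pass after adjustment.

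**Figure D5:**
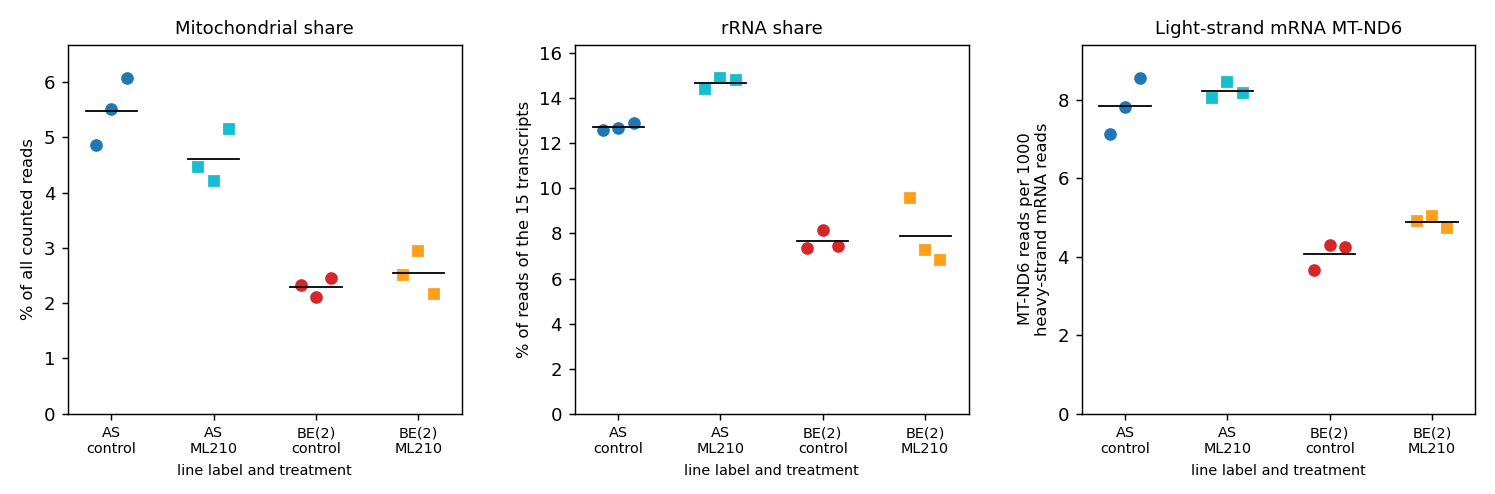
Per-library values of 3 measures: mitochondrial share of all counted reads, rRNA share of mitochondrial reads, and MT-ND6 reads per 1000 heavy-strand mRNA reads; points are libraries of batches 1 to 3 from left to right and bars are group means. The labels are apart in each panel, and the 3 ML210 points lie above the 3 controls for the rRNA share under the label SK-N-AS and for MT-ND6 under the label SK-N-BE(2).

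The nuclear genes of the SK-N-BE(2) label had a median log2 difference of -0.04 with ML210, from -0.20 to 0.18. POLG2 was at 15.7, 14.6 and 15 CPM in the controls and at 12.7, 13.6 and 13.2 CPM with ML210, lower without overlap (log2 difference -0.20 ± 0.0866 SE, adjusted p = 0.337). TFB1M and POLG were the other genes lower without overlap, 3 of 34 in all, where 8.18% of all genes were, and SUPV3L1 was higher without overlap, where 9.22% were. SUPV3L1 stood at 49.9, 51.8 and 51 CPM and at 53.7, 54.8 and 56.3 CPM with ML210 (log2 difference 0.11 ± 0.0637 SE, adjusted p = 0.515). TFAM stood at 78.4, 67.8 and 83.7 CPM and at 69.8, 60.6 and 71.1 CPM (log2 difference -0.19 ± 0.0854 SE, adjusted p = 0.349). Each ML210 library of TFAM was below the control of its own batch, and a fit with the batch as a replicate block within each line label called it (log2 difference -0.19, adjusted p = 0.0485).

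Averaged over both labels, 0 of 34 genes were called by edgeR, with 4 at an unadjusted p under 0.05 and 0 by DESeq2. That comparison called 1.23% of all 20304 genes, 0.699% higher and 0.532% lower, and 2854 had an unadjusted p under 0.05. The median of the 15 mitochondrial estimates was -0.08. POLG and SLIRP had the smallest adjusted p, with log2 differences of -0.12 ± 0.0384 SE (adjusted p = 0.147) and -0.14 ± 0.0488 SE (adjusted p = 0.186). With the batch as a replicate block within each line label, both were called lower, at adjusted p = 0.0448 and 0.0301.

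The difference between the 2 responses was tested directly as an interaction. It called 0 of 34 genes by edgeR, with 11 at an unadjusted p under 0.05 (10 of them mitochondrial) and 0 by DESeq2. Of all 20304 genes it called 0.00493%, and 1454 had an unadjusted p under 0.05. The interaction estimates of all 15 mitochondrial transcripts were above 0, with a median of 0.49 beside 0.01 over all genes, meaning a higher response under the label SK-N-BE(2). MT-ND1 was furthest out, at 0.71 ± 0.172 SE (adjusted p = 0.499), and MT-CO3 nearest to 0, at 0.12 ± 0.187 SE. Without the SK-N-BE(2) ML210 library of batch 3, MT-ND1 was called (log2 difference 0.79, adjusted p = 0.0356). Transcripts of 1 polycistronic RNA are not independent of each other, so 15 estimates on 1 side are not 15 observations.

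A wider list of 201 nuclear genes of mitochondrial expression, 198 of them tested, set these genes in context. In the controls 99 were called lower and 56 higher under the label SK-N-BE(2), with a median log2 difference of -0.19, where 35.2% of all genes were lower and 33.9% higher. Of the mitochondrial ribosome, 27 of 50 large-subunit genes were lower and 12 higher, and 12 of 28 small-subunit genes were lower and 8 higher. MRPL48 stood at 124.1 ± 2.65 CPM (SD, n = 3) against 18.5 ± 0.322 CPM (log2 difference -2.74), and MRPL15 and MRPL18 had log2 differences of -1.45 and -1.42. MRPS26 was higher, at 114.6 ± 5.23 CPM against 55.1 ± 3.11 CPM, while MRPS34 and MRPS2 were lower (log2 differences -0.91 and -0.66).

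Of 20 genes that modify mitochondrial RNA, 7 were called lower and 6 higher, shares near the 35.2% and 33.9% of all genes. The smallest adjusted p values were those of RPUSD4, a pseudouridine synthase, at 76.8 ± 2.28 CPM against 21.9 ± 1.38 CPM (log2 difference -1.81), and of TRMU and MTO1, which modify tRNAs (-1.25 and -1.23). Of 14 genes for transcript ends, 8 were lower and 3 higher, led by FASTK (-0.67), REXO2 (-0.77) and PTCD1 (-1.51). Of 7 transcription regulators, 5 were lower and 0 higher, led by MTERF4 (-0.88), MRPL12 (-0.66) and MTERF3 (-0.61). Among 19 genes of aminoacyl-tRNA synthesis, 9 were lower and 8 higher, with NARS2 (-1.78), MARS2 (-2.00) and EARS2 (-1.01) in front. Of 15 genes listed for mitochondrial translation, not all of them translation factors, 6 were lower and 2 higher. MIEF1 (-1.34), MTIF2 (0.85) and MRRF (-0.75) were in front there.

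For the upkeep of mitochondrial DNA, 9 of 19 genes were lower and 7 higher. LIG3, the ligase that seals mitochondrial DNA, was at 136.2 ± 6.05 CPM (SD, n = 3) against 47.6 ± 1.78 CPM (log2 difference -1.51), SLC25A33, a pyrimidine nucleotide carrier, was at -1.83 and ATAD3A at -1.14. All 13 regulators of mitochondrial biogenesis were called, 7 lower and 6 higher, where 69.2% of all genes were called. Besides MYCN, which is on that list, the coactivator PPARGC1B was lower (-1.51) and the deacetylase SIRT3 was higher (1.66). All 13 genes of mitochondrial stress and quality control were also called, 9 lower and 4 higher, led by the protease gene SPG7 (-1.46) and the chaperones HSPD1 (-1.02) and HSPA9 (-0.81).

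With ML210, 0 of these 198 genes were called under the label SK-N-AS and 2 under the label SK-N-BE(2), against 1.37% of all genes. PPARGC1B, a coactivator of mitochondrial gene programmes, rose from 9.06 ± 0.868 CPM (SD, n = 3) to 13.6 ± 0.633 CPM under the label SK-N-BE(2) (log2 difference 0.58 ± 0.0893 SE, adjusted p = 0.0107), and was also called as a mean over both labels (log2 difference 0.33, adjusted p = 0.025). That mean response lost its call when any 1 of 9 libraries was left out (adjusted p 0.0582 to 0.079) and without the 4 SK-N-AS libraries of batches 2 and 3 (adjusted p = 0.645). DAP3, a GTP-binding protein of the small ribosomal subunit, rose from 150.7 ± 7.74 CPM to 203.1 ± 29.2 CPM (log2 difference 0.43 ± 0.0843 SE, adjusted p = 0.0263). The call of PPARGC1B under this label was lost without the ML210 library of batch 2 (adjusted p = 0.0519) and without the 4 libraries labelled SK-N-AS of batches 2 and 3 (adjusted p = 0.068), and in a fit of only the groups compared (adjusted p = 0.0723). That of DAP3 was lost without any 1 of the 3 SK-N-BE(2) controls and without the ML210 library of batch 1 or 2 (adjusted p 0.0501 to 0.127), without those 4 libraries (adjusted p = 0.132) and with only the groups compared (adjusted p = 0.118).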

How the data were processed

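The samples were sequenced as poly(A)-selected, stranded mRNA libraries, per the labels' protocols. The deposited values are raw read counts per Ensembl gene, which the authors made with FastQC, Trimmomatic 1.4, HISAT2 2.2.1 and featureCounts 2.0.5 on GRCh38, per the submitters' processing notes. Sources used here do not state the annotation, the strand setting or the handling of reads with several matches. Symbols were matched to 61399 identifiers from a table of gene names and to 145 from GENCODE 29, and 8 stayed unnamed.

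Counts were fitted for all 12 libraries with edgeR 4.0.16 (R 4.3.3), using filterByExpr by group, TMM scaling, robust quasi-likelihood tests and Benjamini-Hochberg adjustment over 20304 genes. Calls needed an adjusted p under 0.05. This main fit had 8 residual degrees of freedom and a common dispersion of 0.0223, and the alternative fits estimated their own. The standard error is the log2 difference divided by the square root of F. CPM are TMM-scaled. Only the edgeR fit was tested on simulated counts, for ML210 against control under the label SK-N-AS. Measures that are single numbers per library were compared by exact permutation tests.

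Batch labels pair control and ML210 libraries. Same-batch deviations correlated at 0.357, 0.068 and 0.121 under the label SK-N-AS and at 0.096, 0.12 and 0.169 under the label SK-N-BE(2). Under the label SK-N-AS, control 2 correlated more with ML210 library 3 (0.189), and control 3 slightly more with ML210 library 2 (0.125). The pairing itself comes from the labels, and the counts do not bear it out for batches 2 and 3 under the label SK-N-AS. Alternatives were other scalings, no filter, DESeq2 1.42.0, fewer groups in the fit, batch blocks and leaving out libraries. Leaving out the 4 libraries labelled SK-N-AS of batches 2 and 3 was chosen after seeing the data. All 34 genes are named, and of each wider list up to 3 called genes with the smallest adjusted p. The genes and lists were chosen with earlier results of these data known.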

Additional observations from a re-analysis of the deposited data

How the results depend on the processing

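Of the 34 genes, 31 were called between the controls. The number was 28 with library totals, 30 without a filter, with only the groups compared or with DESeq2, and 31 with the replicate block. The main fit called 69.2% of all genes. For this comparison, counts over all genes follow below only for library totals and for 1 library left out. Library totals moved the mitochondrial median to -1.30 and the nuclear median to -0.09, shifted the median of all genes by 0.243, and turned SLIRP to 0.23 (adjusted p = 0.0075). The cause of these changes was not tested.

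With ML210 under the label SK-N-AS, 0 of the 34 genes were called with the replicate block, 1 (MT-ND1) with only the groups compared, and 0 in the other alternatives. Over all genes the count of 6 became 33 without a filter, 38 with the block within each line label, 21 with only the groups compared, 49 with DESeq2 and 0 without the 4 libraries. Under the label SK-N-BE(2), 1 gene (TFAM) was called with the block within each line label, and 0 with the replicate block over all libraries. Over all genes 279 became 556 without a filter, 455 with the replicate block, 1386 with the block within each line label, 51 with only the groups compared, 753 with DESeq2 and 27 without the 4 libraries. For the mean of both labels, 2 genes (POLG and SLIRP) were called with the block within each line label, and 250 over all genes became 531 without a filter, 1240 with that block, 775 with DESeq2 and 8 without the 4 libraries. For the difference of the responses, the count over all genes of 1 became 24, 85, 39 and 0 in the same order. With library totals the mean of both labels called 237 genes higher and 75 lower, against 142 and 108, and the controls called 8575 higher and 5550 lower, against 6893 and 7154.

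With 1 library left out, the number of the 34 genes called ran from 28 to 31 for the controls, from 0 to 0 for the label SK-N-AS and the mean of both labels, and from 0 to 1 for the label SK-N-BE(2) and for the difference. Over all genes it ran from 13401 to 14241 for the controls, from 3 to 13 for the label SK-N-AS, from 48 to 1242 for the label SK-N-BE(2), from 63 to 1006 for the mean and from 1 to 156 for the difference. The mitochondrial median ran from -0.42 to -0.22 under the label SK-N-AS and from 0.04 to 0.26 under the label SK-N-BE(2). Without the 4 libraries it was -0.20 for the label SK-N-AS, -1.36 for the controls and 0.35 for the difference. The mitochondrial share of reads differed by -1.18 to -0.58 percentage points with ML210 under the label SK-N-AS, 0.0457 to 0.431 under the label SK-N-BE(2), -0.47 to -0.167 over both and -3.5 to -2.89 between controls. The rRNA share differed by 1.85 to 2.09, -0.617 to 0.758, 0.662 to 1.35 and -5.33 to -4.92 in the same order, and MT-ND6 per 1000 heavy-strand mRNA reads by 0.047 to 0.762, 0.622 to 0.943, 0.436 to 0.794 and -4.12 to -3.4. The difference of MT-ND6 over both labels passed without SK-N-AS control 3 (0.794, exact permutation test, adjusted p = 0.045). Where a group is left with 1 library, that library is assumed to vary like the other groups. Depth limits the genes with few reads most, such as TEFM.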

Other observations

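The mitochondrial tRNAs are shorter than the fragments that an mRNA kit keeps well, and most had few reads. MT-TP, a tRNA of the light strand, was the exception, at 42.3 to 53.4 CPM in the libraries labelled SK-N-AS and 18.6 to 26.6 CPM in those labelled SK-N-BE(2), while the other 21 tRNAs stayed at or under 2.31 CPM. The other light-strand tRNAs summed to 3.97 to 4.91 CPM under the label SK-N-AS and to 0.552 to 1.11 CPM under the label SK-N-BE(2). The heavy-strand tRNAs summed to 0.414 to 0.528 CPM and to 0.0911 to 0.161 CPM. Of the 22 tRNAs, 7 passed the filter on low counts. All 7 were called lower in the SK-N-BE(2) controls (median log2 difference -2.74), where 35.2% of all genes were called lower. A tRNA can pass that filter through a single group. MT-TN, for example, had 53, 60 and 57 reads in the SK-N-AS controls and 2, 7 and 3 in the SK-N-BE(2) controls. The count of 7 was thus partly set by the filter and is no support for a difference. With ML210, edgeR called 0 of these 7 under either label.

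Of 17 nuclear copies of mitochondrial genes, 15 were tested. Of these, 12 were called lower in the SK-N-BE(2) controls (median log2 difference -1.99), where 35.2% of all genes were called lower. Copies with few reads can also have passed the filter through a single group. With ML210 under the label SK-N-BE(2), the estimates of all 15 were above 0, with a median of 0.48, and edgeR called 0. Under the label SK-N-AS their median was 0.10.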
